A study of Mus musculus with 2 samples.

Results

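Replication-dependent histone genes encode the bulk of the proteins that package new DNA, and their transcripts were read here in the nuclear RNA of mouse macrophages. A gene was taken when its symbol began with Hist1h, Hist2h or Hist3h and it was annotated as protein-coding. This gave 66 of 55536 annotated genes: 54 in the Hist1 cluster on chromosome 13, 10 in the Hist2 cluster on chromosome 3 and 2 in the Hist3 cluster on chromosome 11. By histone type they were 6 H1, 18 H2A, 18 H2B, 12 H3 and 12 H4 genes. Another 3 genes with a fitting symbol were pseudogenes and were left out. Each gene's measured level did not enter the choice.

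The cells were bone-marrow-derived macrophages (BMDM) of strain C57BL/6J, primary phagocytes grown from marrow. A first dose of lipid A, the endotoxin part sensed by Toll-like receptor 4, lasted 12 h at 100 ng/ml. After 12 h of washout the same dose was given again for 50 min. Ribosomal RNA was depleted from total RNA of a fraction that the labels call both nucleoplasmic and nuclear. All material belongs to 1 group, with a replicate 1 and a replicate 2 that the labels describe as biological, and no unstimulated or whole-cell library was analysed here. The RNA input was 500 ng for replicate 1 and 1 µg for replicate 2, and the effect of input cannot be told apart from that of replicate. Both carry the same donor entry, sex and age were not collected, and no separate animals or cultures are named. SDs therefore measure only the spread between these libraries, which may be technical.

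The gene-level table held 20612114 expected counts in replicate 1 and 22772087 in replicate 2. An empty gene could still hold 3 counts, a limit of 0.146 and 0.132 CPM (counts scaled to the library total), for counting error only. All 6 macrophage markers examined lay above the median of protein-coding genes, and Lyz2 reached 1010 TPM (transcripts per a fixed total, corrected for effective length). Adgre1 stood at 469.7 TPM, and Fcgr1 (3576 and 7859 counts) was the 1 marker that passed the test between libraries described below, 2.10-fold higher in replicate 2. The highest marker of B cells, T cells, natural killer cells, erythroid cells or fibroblasts was at 0.14 TPM, that of neutrophils (S100a9) at 0.61 and that of progenitors (Kit) at 0.56. Ly6g, Ncr1, Klrb1c, Cd3e and Hba-a1 were at 0 in both libraries.

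Core histones H2A, H2B, H3 and H4 form the nucleosome, and H1 binds the linker DNA between nucleosomes. In dividing cells most of them come from these clustered, mostly intronless genes, whose mRNA rises in S phase. That mRNA ends in a conserved stem-loop in place of a poly(A) tail. The stem-loop is bound by the protein Slbp, and cleavage just after it is guided by the U7 small nuclear ribonucleoprotein. Ribosomal depletion keeps RNA without a poly(A) tail, so such transcripts can be read in these libraries.

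The stem-loop letters were searched in the annotated transcripts, since they mark where the mature histone mRNA is processed. They were present in the models of 45 of 66 genes (68.2%), against 0.153% of 58797 protein-coding transcripts. The first share counts genes with a match in any transcript. The second counts single transcripts, those of the 66 genes included. The search used a fixed pattern that begins with GG and pyrimidines and ends with purines and CC. A variant outside it, or a model that stops before the stem-loop, was scored as having none. The runs below are read from the mouse transcripts of GENCODE M21, with the 16 bases of stem and loop in capitals, and show 7 of the 8 forms found, with Hist3h2a and Hist1h1c as 2 examples of the most frequent one.

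Hist3h2a: ccaaaGGCTCTTTTCAGAGCCaccca
Hist1h1c: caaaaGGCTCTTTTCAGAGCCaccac
Hist2h2ac: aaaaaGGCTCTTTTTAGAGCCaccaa
Hist1h3e: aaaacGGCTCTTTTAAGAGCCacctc
Hist1h4m: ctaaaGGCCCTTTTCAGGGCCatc
Hist1h4i: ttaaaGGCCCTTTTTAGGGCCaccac
Hist1h4b: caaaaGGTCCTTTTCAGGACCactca
Hist1h4a: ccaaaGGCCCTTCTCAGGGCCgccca

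The form shown for Hist3h2a and Hist1h1c was carried by 26 genes and was the most frequent. Stems differed by histone type: all 34 stem-loops of H1, H2A, H2B and H3 genes began GGCTC, and 0 of the 11 in H4 genes did. Of the H4 stem-loops, 9 began GGCCC and 2 began GGTCC, each with the matching bases on the other arm. These are properties of the annotation, not measurements.

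Transcripts of this family were scarce in the nuclear RNA, and a few genes made up most of the signal. All 66 genes together held 1571 counts in replicate 1 and 2855 in replicate 2, or 76.2 and 125.4 CPM (100.8 ± 34.7, SD, n = 2). In both libraries, 26 genes reached 10 counts and 4 reached 100. In bulk RNA, fewer cells that make a transcript and less of it per cell cannot be told apart. Another 34 had fewer than 10 counts in at least 1 library but were not empty in both. The remaining 6 were at 0 in both: Hist1h2aa, Hist1h2ao, Hist1h2ba, Hist1h2bl, Hist1h2bp and Hist1h3g. The 10 genes with most counts held 68.5% ± 0.53 (SD, n = 2) of the family's counts. Median TPM over the 66 genes was 0.61 in replicate 1 and 0.94 in replicate 2, and 0.735 for the mean of both. The median of 12140 protein-coding genes with enough counts to be tested was 3.585, and 10 histone genes lay above it. None lay above their 90th percentile of 28.7 TPM. The count filter behind that protein-coding median was not applied to the 66 genes, of which 48 passed it.

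Per length, H4 and H2A genes led. H4 genes held 38.9% of the family's TPM and H2A genes 31.6%, followed by H2B with 15.8%, H3 with 8.05% and H1 with 5.77% (means of 2 libraries). Counts, which also grow with transcript length, put H2A first with 35.6% ± 4.44 and H4 next with 26.7% ± 0.067. H2B held 17.6% ± 2.68 of counts, H1 12.98% ± 0.17 and H3 7.06% ± 2.0 (SD, n = 2). Of 12 H4 genes 9 reached 10 counts in each library, against 5 of 18 H2A, 4 of 18 H2B, 4 of 12 H3 and 4 of 6 H1 genes. The median TPM of a gene was 3.33 among H4 genes and between 0.49 and 0.71 in the other types.

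**Figure D1:**
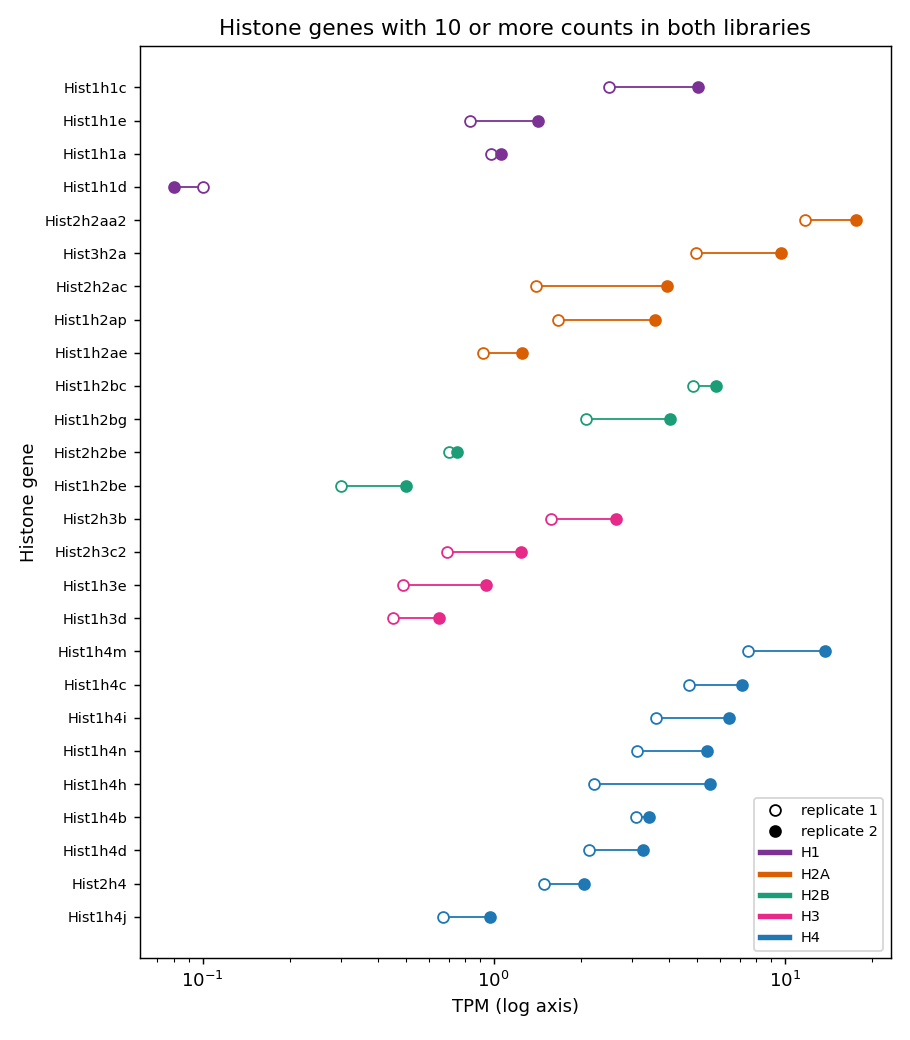
TPM on a log axis of the 26 histone genes that reached 10 counts in each library, ordered by histone type. Open circles are replicate 1 and filled circles replicate 2, with a line joining the 2 values of a gene. Hist2h2aa2 and Hist1h4m lie farthest right, and 25 of the 26 genes are higher in replicate 2, with Hist1h1d the exception.

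Among linker histones Hist1h1c, which encodes a common somatic H1 subtype, was the highest. It had 111 counts in replicate 1 and 237 in replicate 2, or 2.49 and 5.05 TPM (chr13:23738808-23740367, 1560 bases). Hist1h1e followed with 47 and 84 counts, or 0.83 and 1.42 TPM. Hist1h1a had 17 and 20 counts, Hist1h1b 4 and 11, and the testis subtype Hist1h1t 0 and 1. Hist1h1d had 23 and 21 counts, or 0.10 and 0.08 TPM, over a model of 7425 bases. The index-based transcript table gave Hist1h1d 174 and 124 counts, so its level depends on the table. Hist1h1c was thus the one H1 gene above the protein-coding median.

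In the H2A group the signal sat in the Hist2 and Hist3 clusters. Hist2h2aa2 had 121 and 205 counts, or 11.79 and 17.65 TPM, the highest TPM of all 66 genes in both libraries (chr3:96239749-96240276). Its near-identical partner Hist2h2aa1 had 9 and 89 counts, or 0.73 and 6.59 TPM. Hist3h2a had 318 and 649 counts, the most of any gene, and 4.97 and 9.71 TPM over 2146 bases (chr11:58954685-58956830). The 13 Hist1 genes of this type together held 46 and 117 counts. Of these, Hist1h2ap had 15 and 36 counts (1.67 and 3.58 TPM) and Hist1h2ae 15 and 22. Hist2h2ac reached 14 and 45 counts, or 1.40 and 3.94 TPM. H2A signal was therefore concentrated in a few genes outside the largest cluster.

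For H2B, Hist1h2bc was the leading gene, with 150 and 191 counts or 4.83 and 5.79 TPM. Its annotated model (chr13:23684199-23692908) has 2 exons and holds no match to the stem-loop pattern. Hist1h2bg had 27 and 59 counts, or 2.07 and 4.04 TPM, and Hist2h2be 56 and 62 counts, or 0.70 and 0.75 TPM. Hist1h2bj (8 and 21 counts, 0.98 and 2.26 TPM) and Hist1h2bb (9 and 15 counts, 0.93 and 1.41 TPM) were lower. Among H2B genes at 10 counts or more in each library, the 2 libraries were closest in Hist1h2bc and Hist2h2be.

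H3 genes had the fewest counts for their number. Hist2h3b had 14 and 27 counts, or 1.57 and 2.63 TPM, and was the highest per length. Hist1h3a had 4 and 21 counts, or 0.42 and 1.79 TPM. Hist2h3c2 had 18 and 35 counts (0.69 and 1.24 TPM), Hist1h3d 16 and 23, and Hist1h3e 10 and 21. Hist2h3c1 was listed at 39 counts in replicate 1 and 0 in replicate 2, which is taken up with the copies below.

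H4 genes encode one and the same protein in all their copies, as is well known of this family, and most were detected. Hist1h4m had 46 and 101 counts, or 7.48 and 13.78 TPM (chr13:21811746-21812147). Hist1h4c had 94 and 154 counts, or 4.68 and 7.12 TPM, and Hist1h4i 61 and 119, or 3.61 and 6.46 TPM. Hist1h4d (65 and 106 counts) and Hist2h4 (70 and 101) had as many counts over longer models, at 2.13 and 3.27 TPM and at 1.49 and 2.05 TPM. Lower counts stood behind Hist1h4n (22 and 45, 3.12 and 5.42 TPM), Hist1h4h (18 and 53, 2.21 and 5.54 TPM), Hist1h4b (18 and 24, 3.08 and 3.42 TPM) and Hist1h4k (5 and 23, 1.56 and 5.27 TPM). Hist1h4j had 12 and 19 counts and Hist1h4f 7 and 6. Of the 10 histone genes above the protein-coding median, 5 were H4 genes.

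By cluster, Hist1 held 57.4% ± 0.24 of counts, Hist2 21.1% ± 1.49 and Hist3 21.5% ± 1.73 (SD, n = 2). The Hist3 share was Hist3h2a alone but for 1 count of Hist3h2ba in replicate 1.

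The question of whether the 2 libraries gave the same histone levels is one of replicates, not of conditions. Most histone genes had more reads per library size in replicate 2. The test took genes with a sum of 10 or more counts. Of 48 such histone genes 42 had a ratio of replicate 2 to replicate 1 above 1 (87.5%, against 50.5% of all 16140 genes tested). Under 500 bases, 77.8% of other protein-coding genes and 14 of 16 histone genes were above 1. From 500 bases up to 1000 the values were 67.8% and 17 of 18. The 48 histone genes had a median log2 ratio of 0.86, beside 0.006 for all genes. It was 0.86 also with genes at 0 set to the limit that 3 counts allow. That setting could not move it, since the only such genes, Hist1h4a and Hist2h3c1, stay on their sides of the median. Summed counts in replicate 2 were 2.07-fold those of replicate 1 for H2A, 1.77-fold for H1, 1.74-fold for H4, 1.40-fold for H2B and 1.16-fold for H3, after scaling by TMM, the trimmed mean of gene ratios. Those 5 sums carry no test.

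A gene was taken to differ at a Benjamini-Hochberg adjusted p under 0.05 in a two-sided exact binomial test on counts and a ratio of 2-fold or more. On this rule 11 histone genes were higher in replicate 2 and 1 was lower, or 25% of the 48 tested. Over all genes 6.65% passed, 4.63% as higher and 2.01% as lower. The test compares 2 libraries and covers counting error only. Taken as replicates of 1 group, the 2 libraries gave a common biological coefficient of variation of 0.234 over all genes tested, a dispersion of 0.0546. With an edgeR exact test at a preset and smaller dispersion of 0.04, 1 histone gene was higher (Hist2h2aa1) and 1 lower (Hist2h3c1), beside 0.917% and 0.297% of all genes. Among 25 genes with mostly unique sequence, 20 were tested and 3 were higher: Hist1h1c, Hist1h4a and Hist1h4h.

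**Figure D2:**
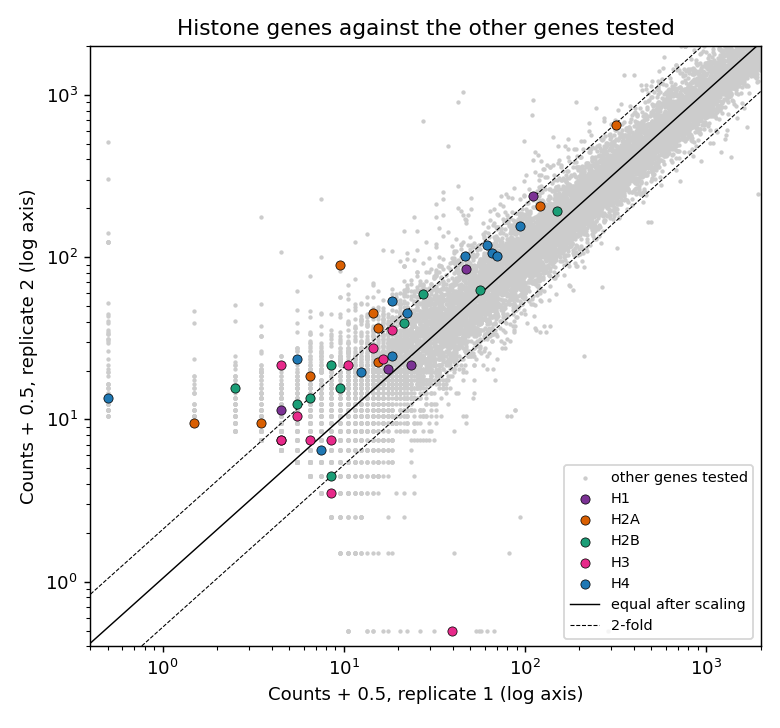
Counts plus 0.5 in replicate 1 (x) and replicate 2 (y), both on log axes, for the 48 histone genes tested (coloured by type) and the other genes tested (grey). Solid and dashed lines mark equal levels after TMM scaling and 2-fold differences, and genes beyond the axis range are not drawn. Histone genes lie mostly above the solid line, and the H3 point at the bottom is Hist2h3c1.

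The 5 H1, H2A and H2B genes that were higher and have over 25 counts in replicate 2 give the scale of the difference. Hist1h1c was 2.03-fold higher (95% exact interval 1.62 to 2.58, adjusted p = 1.49e-09, exact binomial test). Hist2h2ac was 3.0-fold higher (1.66 to 6.06), Hist1h2ap 2.25-fold (1.22 to 4.51) and Hist1h2bg 2.07-fold (1.30 to 3.42). Hist2h2aa1 stood at 9.00-fold (4.76 to 21.3), of which more is said with its copy. With library totals in place of TMM, Hist1h1c, Hist1h2bg and Hist1h4m fell below 2-fold, which left 8 genes higher (4.03% of all genes). A threshold of 1.5-fold gave 18 (9.08% of all genes) and one of 3-fold gave 5 (2.23%). With the index-based counts, 12 genes were higher and 1 lower, beside 4.11% and 5.15% of all genes.

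Of H4 genes, Hist1h4h was 2.76-fold higher (95% exact interval 1.62 to 5.10), Hist1h4m 2.09-fold (1.47 to 3.04) and Hist1h4k 4.08-fold (1.63 to 14.8). Hist1h4a, at 0 counts in replicate 1 and 13 in replicate 2, was 4.14-fold higher with the empty library set to 3 counts. Its exact interval starts lower, at 2.91-fold. Hist1h3a (4 and 21 counts) was 4.56-fold higher (1.69 to 20.1) and Hist1h2br (2 and 15 counts) 5.92-fold (1.67 to 64.6). Such wide intervals leave the size of these differences poorly known.

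Several of the strongest genes stayed under 2-fold while passing on p. Hist3h2a was 1.95-fold higher (1.70 to 2.24, adjusted p = 2.11e-22, exact binomial test), Hist2h2aa2 1.62-fold and Hist1h4i 1.86-fold. Hist1h4c was at 1.56-fold (1.20 to 2.05). By contrast Hist1h2bc was at 1.22-fold (0.977 to 1.52) and Hist2h2be at 1.06-fold (0.725 to 1.55), intervals that include no difference.

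The difference moved with gene length over the whole table. Protein-coding genes outside the family had a median log2 ratio of 0.35 under 500 bases (63 genes), 0.21 from 500 bases up to 1000 (919 genes), 0.08 up to 2000, -0.06 up to 4000 and -0.14 beyond. Histone genes stood at 1.09 (16 genes), 0.88 (18 genes), 0.46 (9 genes) and 0.89 (4 genes) in the first 4 classes, and at -0.19 for the 1 gene beyond. Under 500 bases 17.5% of the other genes were higher in replicate 2 on the same rule, and 5 of 16 histone genes were. From 500 to 1000 bases the values were 5.98% and 5 of 18. The median effective length of the 66 genes was 314.5 bases in replicate 1 and 343.5 in replicate 2. The part of length and RNA input in the library difference was not tested.

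**Figure D3:**
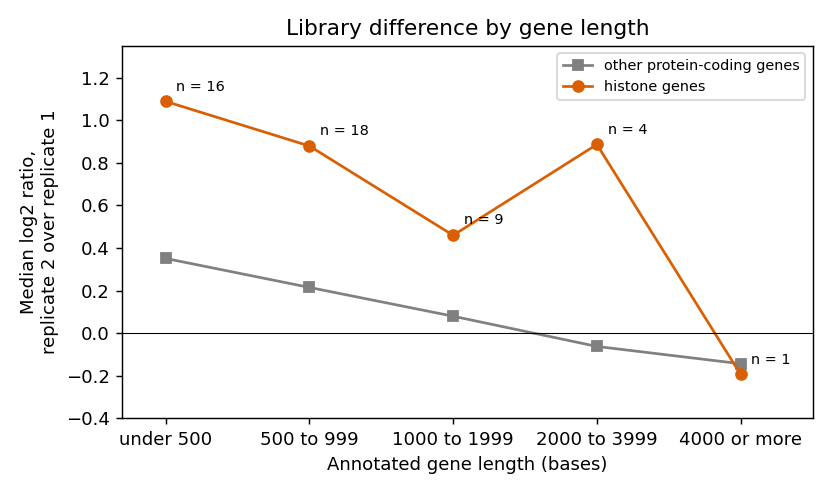
Median log2 ratio of replicate 2 to replicate 1 (y) by annotated gene length in bases (x) for histone genes (circles, with the number tested) and other protein-coding genes (squares). Other genes fall from 0.35 in the shortest class to -0.14 in the longest, and histone genes lie above them in every class but the last, which holds 1 histone gene.

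TPM gave a different account of the library difference in 1 of the tables. In the gene-level table the family's summed TPM was 80.5 in replicate 1 and 142 in replicate 2. In the index-based table it was 43.8 and 36.1, although the same table's counts were 73.2 and 111.3 CPM. There 3 genes annotated as microRNA (Gm24270, Gm23935 and Gm24245) each took 9.51% of TPM in replicate 1 and 23.3% in replicate 2. At the gene level, 5 small non-coding RNAs (Rn7sk, Rpph1, Rmrp, Rn7s1 and Rn7s2) together took 61.5% and 55.4%. TPM was therefore used to rank genes within a library, and counts to compare libraries.

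**Figure D4:**
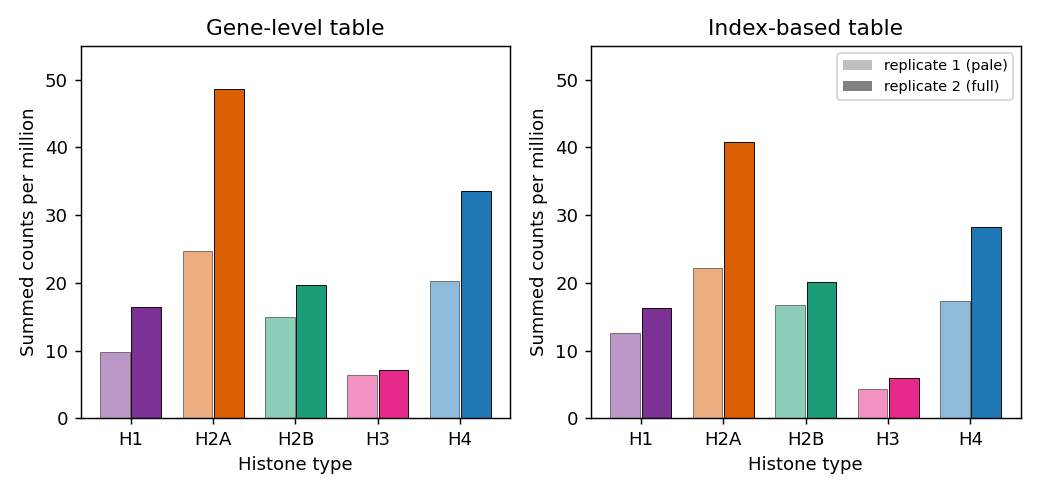
Summed CPM of each histone type in the gene-level table (left) and the index-based table (right), with replicate 1 in pale and replicate 2 in full colour. H2A is highest in replicate 2 in both tables, at 48.6 and 40.7 CPM, and H3 lowest, at 7.08 and 5.88.

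Near-identical copies limit what can be said of single genes. Of the 66 genes 25 had at least 50% of their 31-base words in no other gene, and these held 69.9% ± 1.56 (SD, n = 2) of counts. Another 14 had under 10% unique words, and 5 had none: Hist2h2aa1, Hist2h2aa2, Hist2h3b, Hist2h3c1 and Hist2h2bb. Reads of such genes are divided by the quantification model, whose posterior SD exceeded the square root of the count in at least 1 library for 12 genes. Hist2h2aa1 and Hist2h2aa2 are an example, with posterior SDs of 10.1 and 11.7 counts in replicate 1 and 20.6 and 20.1 in replicate 2. Summed, the pair had 130 and 294 counts, or 2.15-fold more in replicate 2, in place of 9.00-fold and 1.62-fold for the single genes. With antisense Gm20632 and Gm20633 added, the sum was 336 and 490 counts, or 1.39-fold. Gm20634, which overlaps Hist2h2aa1 on the same strand, is not in these sums and had 150 and 260 counts. It holds 100% of the words of Hist2h2aa2 and 89.75% of those of Hist2h2aa1.

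The same held for the one gene that was lower. Hist2h3c1, at 39 counts (posterior SD 16.65) and 0 (posterior SD 8.45), passed as lower in replicate 2. No fold is given, since the posterior SD in the empty library exceeds the limit of 3 counts. It lies wholly within Gm20634 on the same strand, which had 150 and 260 counts. With Gm20634 and the copy Hist2h3c2 it made up 207 and 296 counts, 1.37-fold more in replicate 2. The 3 Hist2 H3 genes without Gm20634 (Hist2h3b, Hist2h3c1 and Hist2h3c2) summed to 71 and 62 counts, or 0.835-fold. The index-based table listed Hist2h3c1 at 0 in both libraries.

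**Figure D5:**
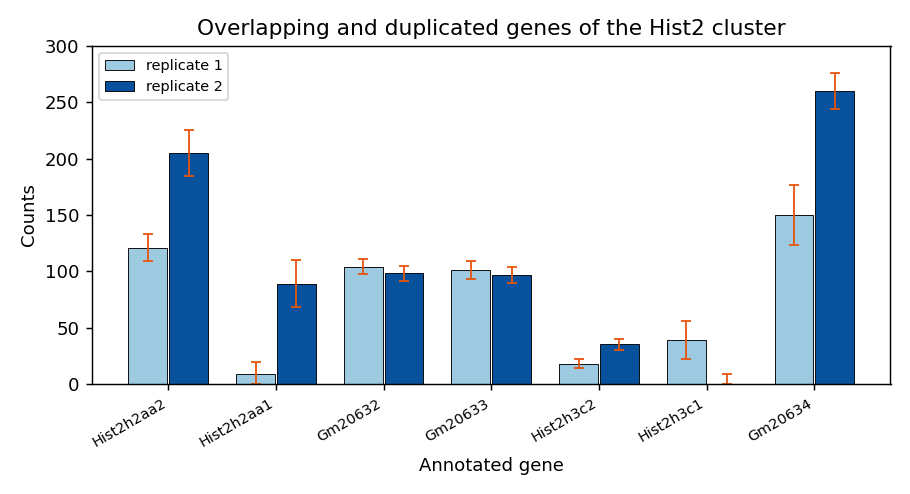
Counts (bars) and posterior SDs of the authors' quantification (error bars) of duplicated and overlapping genes of the Hist2 cluster, with replicate 1 in pale and replicate 2 in dark blue. Hist2h2aa1 goes from 9 to 89 counts and Hist2h3c1 from 39 to 0, while antisense Gm20632 and Gm20633 stay between 97 and 104.

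Other copies were summed in the same way. Hist1h4m and Hist1h4n together had 68 and 146 counts (2.04-fold), Hist1h2ao and Hist1h2ap 15 and 36 (2.30-fold), and Hist1h2bq and Hist1h2br 11 and 19 (1.66-fold). Hist1h3h and Hist1h3i had 13 and 10 counts. No source used here says if counting was strand-specific, so antisense partners cannot be told apart from the histone genes. Gm20632 and Gm20633, opposite the Hist2h2aa genes, summed to 206 and 195 counts, and Gm20628, opposite Hist2h3b, had 23 and 42. Hist3h2a lies within Trim17, a gene on the same strand that had 45 and 49 counts, and Hist1h2be overlaps Hist1h1e by 496 bases.

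Annotated 3′ ends differed among the genes, and counts and TPM were summed by the kind of end. Models that ended within 60 bases of the stem-loop numbered 22 and held 22.6% ± 3.42 of the family's counts and 48.4% ± 2.43 of its TPM (SD, n = 2). Another 23 ran on past the stem-loop and held 61.3% ± 0.40 of counts and 33.6% ± 0.62 of TPM. Hist3h2a, whose model continues for 1643 bases after the stem-loop, Hist1h1c (840 bases), Hist2h4 (1257 bases) and Hist1h4d (770 bases) are of this kind. The tables give 1 value per transcript, so how many of those reads lie beyond the stem-loop was not analysed here. In 15 genes the model stopped at the stop codon, and these held 2.58% of counts. The 6 others without a match to the stem-loop pattern (Hist1h1a, Hist1h2bc, Hist1h2bq, Hist1h2br, Hist2h2be and Hist2h3b) held 13.5% ± 3.26.

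The library difference was 2.15-fold in the sum of models that end at the stem-loop, 1.72-fold in those that run past it, 1.97-fold in those that stop at the stop codon and 1.23-fold in the 6 others. Of tested genes, 6 of 16, 3 of 20, 1 of 6 and 1 of 6 were higher, in that order, beside 4.63% of all genes and 17.5% of other protein-coding genes under 500 bases. Those groups differ in length and in unique sequence too, and the difference between them was not tested.

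Most genes have 1 annotated transcript (61 of 66). Hist1h2be has 3, and its shortest, a processed transcript without a coding frame, held 32.27% of the gene's TPM in replicate 1 and 3.07% in replicate 2 on 6 counts and 1 count. The index-based table gave it 29.4 and 16.9 counts. This difference between isoforms was not tested.

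Promoters were compared because H2A and H2B genes often stand back to back and share one. RefSeq promoter windows (GRCm38.p6, 250 bases before to 50 after the start) matched 61 of 66 genes. Searched on both strands were ATTTGCAT, the octamer bound by Oct1, CCAAT, and TATAAA. The octamer was found in 7 of 18 H2A and 6 of 16 H2B windows and in none of the 27 H1, H3 and H4 windows, against 1.74% of 32851 promoters. CCAAT was present in 53 of 61 (86.9%, against 37.4%): in every H1, H2A, H2B and H3 window and in 3 of 11 of H4. TATAAA was present in 35 of 61 (57.4%, against 13.6%), including 8 of 11 H4 windows. The 250 bases before the start of 4 genes are shown to set an H4 gene beside octamer-bearing H2A and H2B genes, with the 3 motifs on either strand in capitals (ATGCAAAT, ATTGG and TTTATA are the reverse strand).

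Hist3h2a, chr11:58954435-58954684, plus strand: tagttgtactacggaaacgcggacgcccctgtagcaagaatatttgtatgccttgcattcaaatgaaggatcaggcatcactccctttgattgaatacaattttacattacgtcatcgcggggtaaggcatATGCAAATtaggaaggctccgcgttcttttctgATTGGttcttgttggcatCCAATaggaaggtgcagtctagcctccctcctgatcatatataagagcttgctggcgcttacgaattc
Hist2h2ac, chr3:96220881-96221130, minus strand: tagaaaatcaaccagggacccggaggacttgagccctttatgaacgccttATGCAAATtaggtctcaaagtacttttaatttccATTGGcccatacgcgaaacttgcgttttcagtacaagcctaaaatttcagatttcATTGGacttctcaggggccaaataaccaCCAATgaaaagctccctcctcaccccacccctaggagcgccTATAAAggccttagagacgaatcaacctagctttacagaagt
Hist1h2bg, chr13:23571150-23571399, plus strand: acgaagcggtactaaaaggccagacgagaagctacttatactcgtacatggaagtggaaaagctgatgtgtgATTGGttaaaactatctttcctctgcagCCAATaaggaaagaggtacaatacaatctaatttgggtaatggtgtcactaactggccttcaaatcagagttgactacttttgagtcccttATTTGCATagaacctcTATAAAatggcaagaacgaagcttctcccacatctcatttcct
Hist1h4m, chr13:21811496-21811745, plus strand: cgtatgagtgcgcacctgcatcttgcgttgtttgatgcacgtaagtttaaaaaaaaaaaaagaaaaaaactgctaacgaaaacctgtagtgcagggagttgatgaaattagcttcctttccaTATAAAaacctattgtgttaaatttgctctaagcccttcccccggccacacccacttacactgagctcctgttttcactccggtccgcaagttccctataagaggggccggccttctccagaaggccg

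Hist3h2a, Hist2h2ac and Hist1h2bg each hold the octamer 1 time, and Hist1h4m holds only a TATAAA. The window of Hist1h2bg overlaps that of Hist1h2ae, its divergent neighbour, so the motifs of such pairs are counted in both. A match is a string of letters in a window, not a measured site.

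Some replication-independent histone genes had far higher levels than any clustered gene. H3f3b, a gene for variant H3.3 whose mRNA is polyadenylated, stood at 194.7 ± 14.6 TPM (SD, n = 2), which is 1.75 times the summed 111 TPM of all 66 clustered genes. H2afy (macroH2A) stood at 34.9 ± 3.37 TPM. The list held histone genes whose symbols fall outside the rule used for the 66, Hist4h4 and H2afx among them. Whether each is independent of replication was not tested. Of 11 genes tested in this list of 12, none was higher in replicate 2 and 1 was lower: Cenpa, the centromeric H3 variant, with 68 and 35 counts. Their median log2 ratio was 0.13. By adjusted p alone (under 0.05, exact binomial test), H2afj was 1.71-fold higher, H1f0 1.37-fold and H3f3a 1.29-fold. H3f3b was lower on that basis, at 0.949-fold. The share of all genes passing on adjusted p alone was not counted, here or for the lists below, so such passes are not read as traits of a list. With many counts small ratios pass, as Lyz2 did at 0.968-fold (adjusted p = 3.15e-05, exact binomial test).

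Genes that process histone mRNA ranged from 0.105 to 34.5 TPM, and 7 of 14 lay above the protein-coding median. Of the 14 genes 0 were higher and 0 lower by the 2-fold rule (exact binomial test), with a median log2 ratio of -0.04. By adjusted p alone (under 0.05), Sympk was 1.15-fold higher in replicate 2. Ncbp1 (0.671-fold), Npat (0.703-fold), Eri1 (0.806-fold) and Casp8ap2 (0.841-fold) were lower on that basis. Srrt stood at 34.5 TPM, Sympk, the scaffold of the cleavage complex, at 11.5 and Slbp at 4.98 ± 0.61 (SD, n = 2). Npat, the coactivator of histone transcription, was at 1.27 and 0.90 TPM. The U7-associated Lsm11 and Zfp473 were the lowest, at 0.19 and 0.105 TPM. Of 10 genes in the list of histone chaperones and their partners none passed the 2-fold rule either. Daxx (1.66-fold) and Asf1a (1.497-fold) were higher in replicate 2 by adjusted p alone (under 0.05, exact binomial test). No gene of this list was lower on that basis. Daxx, which loads H3.3, reached 111.8 ± 35.8 TPM and Hat1 11.1, and the median ratio was 0.05 on the log2 scale.

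The S-phase list, of genes for DNA replication and cell cycling, was read beside the clustered genes. Of 19 genes, 0 were higher and 0 lower by the rule, 5 had a ratio above 1, and the median log2 ratio was -0.17. By adjusted p alone (under 0.05, exact binomial test), Top2a (0.622-fold), Pola1 (0.742-fold), E2f1 (0.805-fold) and Mki67 (0.844-fold) were lower in replicate 2. Tk1 (1.33-fold) was higher on that basis. No share of all genes on that basis was counted, and the test covers counting error only. Mki67 stood at 38.4 ± 4.70 TPM and Pcna at 20.4 ± 1.39, while the list's median was 1.6 TPM. Of the 19 genes, 4 lay above the protein-coding median.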

How the data were processed

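The authors deposited, per library, a gene-level table, an alignment-based and an index-based transcript table (mm10, GENCODE M21, per the file headers). Aligner and counter: not given in the sources used here. Expected counts, as the authors deposited them, divide reads shared by copies, with a posterior SD from the authors' quantification. TPM, FPKM and the percent of a gene's TPM in each transcript were also deposited by the authors, and TPM depends on the small RNAs that take most of it.

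Rows naming no gene (0.144% and 0.0810% of counts) were left out, and expected counts were rounded. TMM factors came from edgeR 4.0.16 in R 4.3.3, and libraries were compared by a two-sided exact binomial test per gene, Benjamini-Hochberg adjusted over 16140 genes whose counts summed to 10 or more. Ratios used 0.5 added counts, and their intervals are exact (Clopper-Pearson, 95%). With 1 library against 1, no comparison could estimate its own spread. The common dispersion was estimated with both libraries as 1 group. On simulated Poisson counts for those genes the test recovered 95% of 100 genes given a log2 change of 1.5 and 100% of 100 given 2.5, and called 0.0188% of the rest. The changed genes were drawn only from those with higher summed counts, so this recovery does not cover histone genes with few counts. Poisson counts also leave out the common dispersion.

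The members and lists (replication-independent histones, 3′ processing, chaperones and partners, S phase, markers of cell types) were chosen with earlier results of these data known. Named with full values are the 20 genes with the highest TPM, the 2 highest of each type and those past the test. In the lists they are the 2 highest and any past the test, and Slbp, Npat, Lsm11 and Zfp473, chosen after their values were seen. Alternatives covered scaling, filters, added counts, fold, dispersion, table and unit. The test has DESeq2 1.42.0 size factors as an alternative scaling. Words, stem-loops and motifs were searched with Python 3.11.15 in GENCODE M21 transcripts and RefSeq promoters.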

Additional observations from a re-analysis of the deposited data

How the results depend on the processing

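Counts are low, so single genes are imprecise, and near-identical copies limit them further. The median TPM of the 66 genes was 0.279 in the index-based table, and median FPKM was 1.14. Each library alone gave 0.61 to 0.94 TPM, 76.2 to 125.4 summed CPM, and 27 to 38 genes with 10 or more counts. A minimum of 3 counts in both libraries kept 46 genes and one of 20 counts kept 15. Genes higher in replicate 2 numbered 1 with a dispersion of 0.04, 18 at 1.5-fold, 5 at 3-fold and 3 among genes with 50% or more unique words, an alternative chosen after seeing the data. Among the latter 0 were lower by the exact binomial test, 0 also at an unadjusted p under 0.05, and 0 by the edgeR exact test at either dispersion. Library totals gave 8 genes higher, and the index-based table gave 12 higher and 1 lower, Hist1h2bq with 38 and 6 counts. The median log2 ratio stayed between 0.64 and 0.88 over the alternatives run. Shares by type changed for H1 (5.77% of TPM, 15.98% of index-based counts), H2B (20.5% of index-based counts) and H4 (38.9% of TPM, 24.5% of index-based counts). The causes were not tested. No paired analysis was possible because the series has 1 group. Leaving out a library leaves no comparison between libraries.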

Other observations

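Hist4h4, an H4 gene outside the 3 clusters that was counted in the replication-independent list, had 29 and 26 counts in the gene-level table. It had 92 and 82 in the index-based table. Of the 3 pseudogenes with a fitting symbol, Hist1h2al was at 0 counts in both libraries, Hist1h2aj had 3 and 0, and Hist3h2bb-ps had 0 and 3. Gene-level and index-based counts of the 66 genes had a Spearman rho of 0.86 in replicate 1 and 0.97 in replicate 2, across genes of the same library, which are not independent replicates.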
